A study of Mus musculus with 6 samples.

Results

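These regions had an H3K27ac peak in one mouse Ewing sarcoma cell line, ES48, and met an H3K27me3 peak but no H3K27ac peak in another, ES49. A region was an H3K27ac peak of ES48 on chromosomes 1 to 19 that shared at least 1 bp with an H3K27me3 peak of ES49 and no base with an H3K27ac peak of ES49. The rule was met by 243 of the 25313 autosomal H3K27ac peaks of ES48 (0.96%). Both lines were induced by the fusion protein EWS-FLI1, have a Balb/c background and were cultured without treatment. H3K27ac and EWS-FLI1, the latter through a FLAG tag, were precipitated in ES48 and in ES49, and H3K27me3 in ES49. Each of these 5 libraries was its group's single sample, and an ES49 input sample was not analysed here. An ES48 H3K27me3 library was not analysed here either, so it is not known from these data whether the regions carried H3K27me3 in ES48 as well. Coordinates refer to mm9, for which no gene annotation was used, so each region goes by its coordinates.

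Acetylation and trimethylation compete for the same lysine of histone H3, so a single histone tail cannot carry both there. H3K27ac is found at active promoters and enhancers. H3K27me3 is laid down by a Polycomb repressive complex, above all at silent developmental regulator genes, where it often spreads over CpG islands and their surroundings.

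The regions were chosen by the presence or absence of peaks in the 3 histone lists, and each group has 1 library, so widths, scores and overlaps are given as a description with no test. Each list gives a score per peak, which is the authors' peak caller's own and is compared only within a list. Scores started at 50 and many strong peaks shared a ceiling of 3100. No read counts were at hand, so depth is unknown and a missing ES49 H3K27ac peak means no call, not absence of acetylation. Intervals are 95% Clopper-Pearson intervals for shares and order-statistic intervals for medians. They cover counting error only and treat neighbouring peaks as independent, which makes them too narrow.

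The regions ranged from weak, narrow peaks to some of the strongest acetylated peaks of ES48. Their ES48 H3K27ac score ran from 50.1 to 3203, with a median of 263.6 (interval 197 to 344.8). Scores below 100 were found in 66 regions and scores of at least 1000 in 56. Their width ran from 203 to 5963 bp, with a median of 1143 bp (997 to 1306). Width and score went closely together over the 243 regions (Spearman's rho 0.96, Pearson's r 0.88). The other 8223 ES48 peaks with no ES49 H3K27ac peak, those without H3K27me3, had a median width of 686 bp and a median score of 115.1. The 16698 peaks acetylated in both lines without H3K27me3 had medians of 1964 bp and 1394. In width and score the regions thus lay between the peaks that were called in ES48 alone and those called in both lines. Of the regions 19 (7.82%, 4.77 to 11.9) had a score of at least 3000, against 20.5% of all autosomal ES48 H3K27ac peaks and 1.02% of the ES48-only peaks without H3K27me3.

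**Figure D1:**
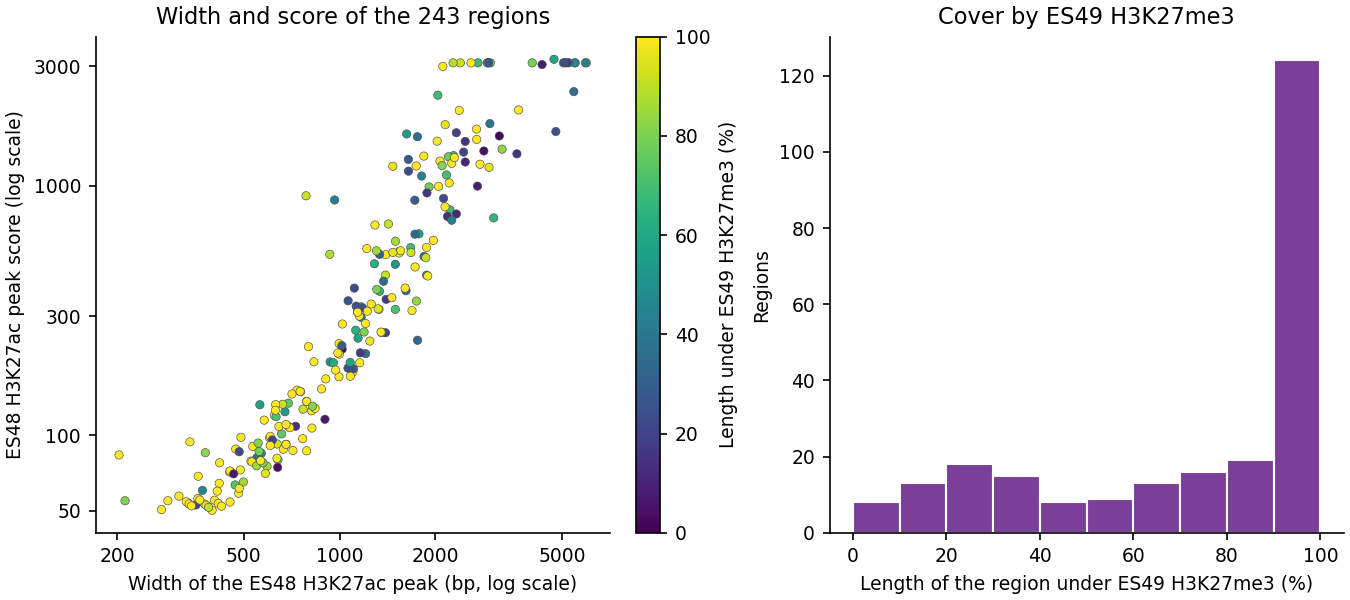
Left, width in bp against ES48 H3K27ac score for the 243 regions, both on log scales, with colour for the percentage of the region's length under ES49 H3K27me3 peaks. Right, number of regions by that percentage in steps of 10. Width and score went together, the row of points at 3100 is the score that many strong peaks shared, and the bar from 90 to 100% holds 124 regions.

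H3K27me3 in ES49 covered most of the length of a typical region. The median share of a region under H3K27me3 was 91.6% (82.8 to 98.6), with quartiles of 46.9 and 100%, and the median overlap was 679 bp. In 100 regions (41.2%, 34.9 to 47.6) the whole acetylated peak lay within H3K27me3, and in 188 (77.4%, 71.6 to 82.5) its centre did. H3K27me3 entered from a single end in 82 regions and from both ends in 23, and in 38 it lay inside the acetylated peak without reaching an end. Wholly covered regions were the narrower and weaker ones, with a median of 777 bp and an ES48 score of 134.7, against 1621 bp and 684.2 for regions with H3K27me3 inside only. A narrow peak is more easily covered whole and score went with width, so this order is partly built into the layouts. Of the 19 regions with a score of at least 3000, 1 was wholly covered, and 11 were covered over at least 50% of their length.

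The H3K27me3 peaks at the regions were larger than most of the ES49 list, as were others that met H3K27ac. The regions met 285 of the 19412 autosomal H3K27me3 peaks (1.47%). These 285 had a median width of 1249 bp and a median score of 305.3, against 500 bp and 89.7 in the whole H3K27me3 list. A score of at least 3000 was reached by 30 of them (10.5%), and by 1.26% of the list. For the 143 H3K27me3 peaks that met H3K27ac of both lines the medians were 1104 bp and 260.5, and 6.99% had a score of at least 3000. Wide peaks are met more often by any other peak, and the part of width in this difference was not tested. The strength of one mark said little about that of the other: ES48 H3K27ac score and the highest H3K27me3 score had a Spearman's rho of -0.06 and a Pearson's r of -0.01 over 243 regions, given as a description. Both scores were at least 1000 in 23 regions and both below 100 in 7.

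Among ES48 peaks that ES49 lacked, meaning that no H3K27ac peak was called there in ES49, the share with H3K27me3 was higher for stronger peaks. Without regard to score, 243 of the 8466 ES48 peaks with no ES49 H3K27ac peak (these being 33.4% of the autosomal list) overlapped H3K27me3 (2.87%, 2.53 to 3.25), beside 149 of 16847 peaks (0.884%, 0.749 to 1.04) that did overlap ES49 H3K27ac. For all autosomal ES48 H3K27ac peaks the share was 1.55%. With an ES48 score from 50 to 100 the share among peaks that ES49 lacked was 1.79% (66 of 3697), and from 100 to 300 it was 2.12% (59 of 2787). From 300 to 1000 it was 4.40% (62 of 1409), and from 1000 to 3000 it was 7.87% (37 of 470). At 3000 and above, 19 of 103 peaks overlapped H3K27me3 (18.4%, 11.5 to 27.3). Peaks acetylated in both lines showed no such order, with 0.981%, 1.07%, 0.919%, 0.648% and 0.965% in the same bins of score. These peaks were chosen for H3K27ac in ES49, the line whose H3K27me3 is counted. The marks compete for the same lysine, so their share is no independent baseline. Strong peaks are wide and have more bases to overlap. Among peaks that ES49 lacked, the share rose with width as well, from 1.74% below 500 bp to 14.6% at 4000 bp and above. For peaks of both lines it was 1.54% and 1.42% in those bins. Weak peaks may also be missed calls in ES49. Scores below 100 were found in 44.2% of the ES48-only peaks without H3K27me3, and 54.4% of these peaks had ES49 H3K27ac within 10 kb. The parts of score, width and missed calls were not tested apart. The length under H3K27me3 was compared by score as well. It was 1.504% of the acetylated length in the lowest bin and 8.99% in the highest for peaks that ES49 lacked, and between 0.302 and 0.737% over the 5 bins for peaks of both lines. By bin of width it went from 1.48 to 6.35% for peaks that ES49 lacked, so this measure does not separate score from width.

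**Figure D2:**
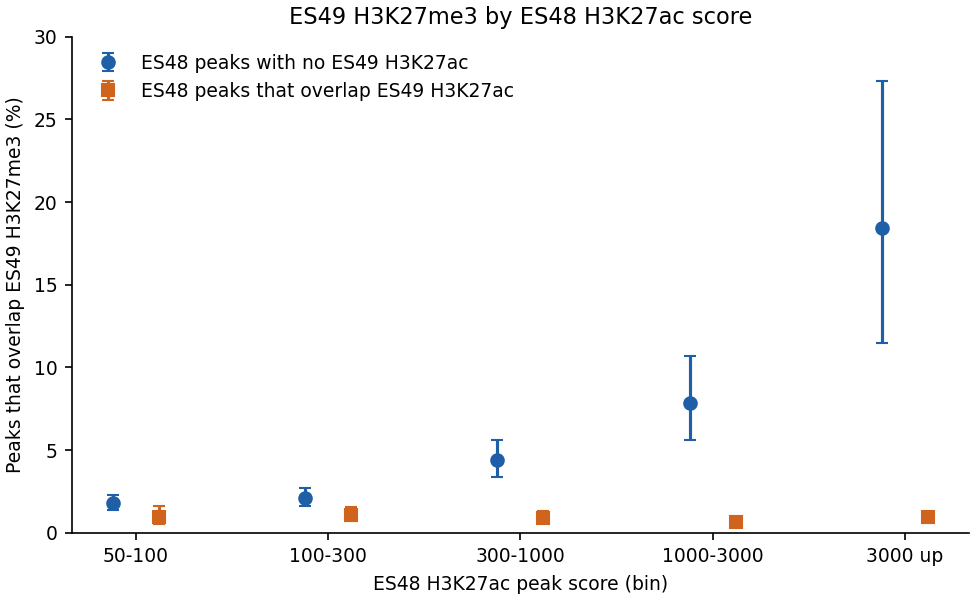
Percentage of autosomal ES48 H3K27ac peaks that overlap an ES49 H3K27me3 peak, by bin of ES48 H3K27ac score, with 95% Clopper-Pearson intervals as bars. Circles are peaks with no ES49 H3K27ac peak, going from 1.79% in the lowest bin to 18.4% in the highest, and squares are peaks that overlap ES49 H3K27ac, which stay between 0.648 and 1.07%.

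The strongest regions were kilobases wide and spread over 10 chromosomes. The highest ES48 H3K27ac score was 3203, at chromosome 8 73015627 to 73020342, where 4 H3K27me3 peaks with scores up to 406.8 covered 59.0% of the 4716 bp. Another 17 regions stood at the ceiling of 3100, and the widest of these was chromosome 1 74836118 to 74842080, with 98.8% of its 5963 bp under H3K27me3. Next in width were chromosome 2 93012141 to 93018061 (42.4% covered), chromosome 1 74850392 to 74855886 (76.1%) and chromosome 12 15818512 to 15823996 (48.0%). Cover was least among the 10 highest at chromosome 2 173129415 to 173134588, where 639 bp of 5174 lay under a weak H3K27me3 peak with a score of 97.0. At chromosome 7 149665710 to 149670806 the cover was 22.9% and the H3K27me3 score 169.7. The region at chromosome 9 58883018 to 58885605 was the wholly covered one among the 19, with an H3K27me3 score of 2502. The H3K27me3 over these strongest peaks, which were selected on their ES48 score, ran from a single weak call to full cover.

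The longest overlaps with H3K27me3 were 5890 and 4179 bp, at the chromosome 1 regions just named. Next came chromosome 12 120084697 to 120088345, whose 3649 bp lay wholly under an H3K27me3 peak with a score of 3100 and whose own ES48 H3K27ac score was 2008. Chromosome 4 138009280 to 138012041 and chromosome 2 93027231 to 93029923 were also wholly covered by H3K27me3 peaks at 3100, with ES48 scores of 1217 and 1683. Chromosome 5 3342072 to 3344767 had an ES48 score of 1530 and full cover by an H3K27me3 peak with a score of 2659. Of the 10 longest overlaps, 4 were also among the 10 highest ES48 scores.

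Acetylated peaks of ES49, which by the rule overlapped no region, lay farther from the regions than from the other ES48-only peaks. The median distance to the nearest ES49 H3K27ac peak was 52.9 kb (39.1 to 72.5), with quartiles of 15.3 and 162.8 kb. For the other ES48-only peaks, which also overlapped none, it was 7.59 kb (7.08 to 8.05), with quartiles of 1.31 and 41.3 kb. The rule required ES49 H3K27me3 at the regions alone, so distance to the other ES49 mark is not independent of it. The 2 classes also differed in median ES48 score (263.6 and 115.1) and median distance to the next ES48 peak (9.95 and 0.648 kb). The part of these differences was not tested. An ES49 H3K27ac peak lay within 10 kb of 47 regions (19.3%), against 54.4% of the other ES48-only peaks. It lay within 1 kb of 6 regions (2.47%) and within 100 kb of 157 (64.6%). In 8 regions (3.29%) it was over 1 Mb away. Shares at these 3 distances were not counted for the other ES48-only peaks, whose largest distance was 3308 kb. The farthest regions were both on chromosome 12, at 47916239 to 47921288 (2417 kb) and 62623376 to 62628626 (2302 kb), and both had the ceiling ES48 score. The others beyond 1 Mb included chromosome 17 90853466 to 90855376 and chromosome 6 63205820 to 63207919, with ES48 scores of 987.4 and 1202.

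The regions were also rather isolated within the ES48 acetylation map itself. Another ES48 H3K27ac peak lay within 50 kb of 183 regions (75.3%, 69.4 to 80.6), against 88.2% of all autosomal ES48 H3K27ac peaks. The median distance to the next ES48 peak was 9.95 kb, against 0.648 kb for ES48-only peaks without H3K27me3 and 6.12 kb for peaks acetylated in both lines without H3K27me3. Of 452 other ES48 peaks within 50 kb of a region, 245 (54.2%, 49.5 to 58.9) overlapped ES49 H3K27ac, against 66.6% of all autosomal ES48 peaks. Counted once for each peak they neighbour, and with neighbours of every class included, 44.1% of the neighbours of the regions overlapped ES49 H3K27ac, 52.7% of those of the other ES48-only peaks and 64.3% of those of all peaks. A lower share than in the whole list was therefore not particular to the regions. H3K27me3 went beyond the acetylated peaks. In the 10 kb on either side, H3K27me3 covered a median of 13.3% of the sequence, and 222 of the 243 regions (91.4%) had some there. Some was also found beside 76.5% of the ES48 peaks that met both ES49 marks and beside 4.87% of all autosomal ES48 H3K27ac peaks, and a flank next to a required overlap is not independent of the rule. ES49 H3K27ac was present in the flanks of 47 regions (19.3%), against 54.4% of the other ES48-only peaks and 64.2% of all.

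**Figure D3:**
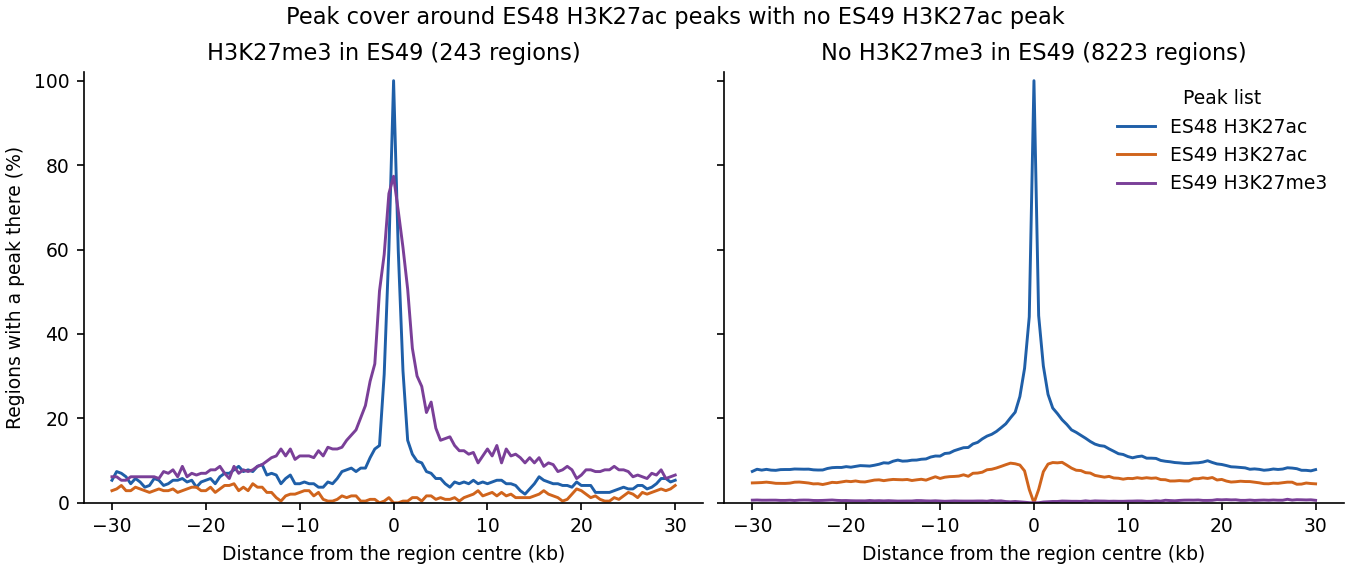
Percentage of regions with a peak at each distance in kb from the centre of the ES48 H3K27ac peak, for the ES48 H3K27ac, ES49 H3K27ac and ES49 H3K27me3 lists; left the 243 regions, right the 8223 ES48-only peaks without H3K27me3. The values at the centre follow from the rule; at 5 kb on either side H3K27me3 covered 14.8% of the regions on the left and ES49 H3K27ac covered 1.23%.

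Most regions stood alone, and a few loci held several. Joined at less than 50 kb, the 243 regions formed 201 loci, of which 174 held 1 region, 20 held 2 and 7 held 3 or more. The 7 loci together held 29 regions, and none of them had an H3K27ac peak of ES49 or an EWS-FLI1 peak of either line within its span.

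The locus with the most regions was on chromosome 1, from 74818060 to 74855886. All 6 ES48 H3K27ac peaks in its 37.8 kb were among the regions, with scores of 799.8, 544.7, 3100, 68.6, 97.8 and 3100 from left to right. ES49 had 8 H3K27me3 peaks over this stretch, which covered 21.3 kb of it, with a highest score of 3100 at 74848154 to 74854570. The nearest H3K27ac peak of ES49 lay 7.22 kb beyond the last region, at 74863110 to 74864304 with a score of 510.5, where ES48 had a peak too. H3K27ac was thus called in both lines at the right-hand neighbour of the cluster.

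On chromosome 2, 93011439 to 93032645, 5 regions covered 11.6 kb of a 21.2 kb locus. The widest, at 93012141 to 93018061, had the ceiling ES48 score and was met by 5 weak H3K27me3 peaks with scores up to 150.6. The next, at 93027231 to 93029923, lay wholly under an H3K27me3 peak at 93025989 to 93030664 with a score of 3100. The H3K27me3 peaks of the locus with scores above 1000 lay to the right of its strongest acetylated peak.

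At another 2 loci the acetylated peaks were weaker. On chromosome 11, from 96853800 to 96887799, 5 regions with scores from 58.7 to 344.8 covered 4.37 kb, while 13 H3K27me3 peaks covered 30.7 kb of the 34.0 kb. ES49 was acetylated on either side, at 96837120 to 96840332 and 96890841 to 96892252, and so was ES48. On chromosome 5, from 140019114 to 140075552, 4 of 7 ES48 H3K27ac peaks were among the regions, with scores from 52.2 to 434.6. H3K27me3 covered 24.7 kb of the 56.4 kb, and the remaining 3 acetylated peaks fell in a gap between H3K27me3 peaks.

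**Figure D4:**
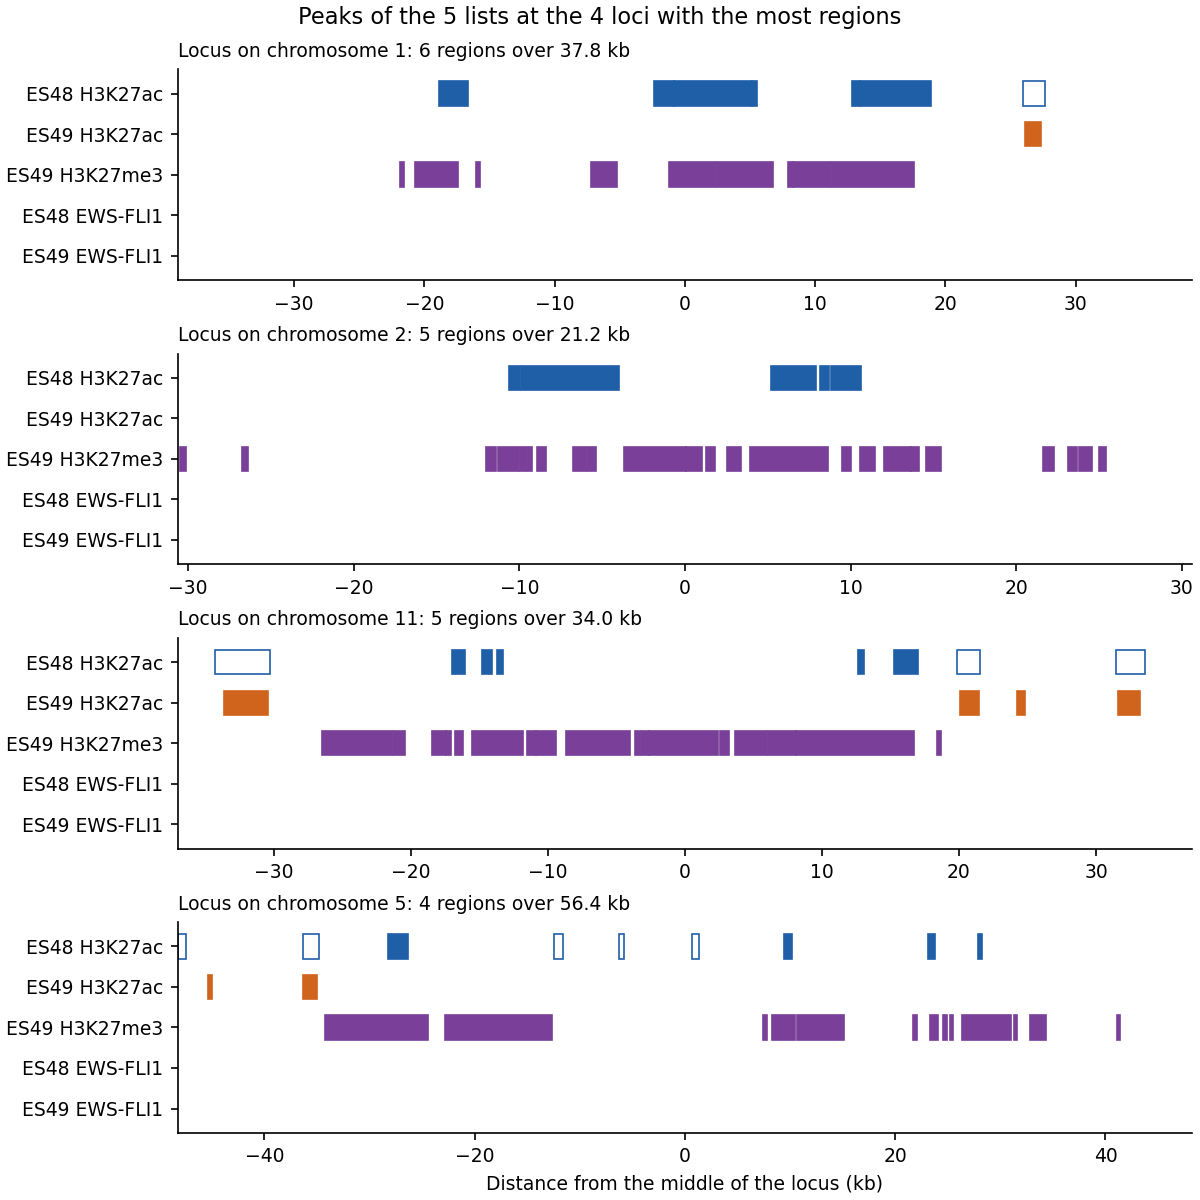
Peaks of the 5 lists at the 4 loci with the most regions, drawn to scale against distance in kb from the middle of the locus; each box is a peak, neighbours a few bases apart run together, and filled ES48 H3K27ac boxes are the regions, open ones other ES48 H3K27ac peaks. H3K27me3 of ES49 lies over and between the filled boxes, and ES49 H3K27ac boxes appear only outside the span of the regions.

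The other loci with 3 regions were all on chromosome 11. At 58761136 to 58767643 the ES48 scores were 1195, 530.5 and 910.3, H3K27me3 was modest, with scores up to 423.6, and ES49 H3K27ac came within 0.365 kb. At 71942702 to 71949225 a strong peak with a score of 3052 met the edge of an H3K27me3 peak over 385 bp of its 4326, and 2 weak peaks with scores of 54.8 and 90.3 lay within that H3K27me3 peak. The locus at 96147658 to 96181007 was of the opposite kind, with 3 weak regions (86.7, 50.5 and 172.5) inside 2 very broad H3K27me3 peaks of 35302 and 26046 bp. Broad H3K27me3 peaks of at least 10000 bp held 5 regions in all (2.06%). The share of all ES48 H3K27ac peaks in such broad peaks was not counted. The strongest of the 5 was chromosome 7 138696839 to 138698678, with an ES48 score of 1312 in an H3K27me3 peak of 18046 bp.

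The chromosomes held unequal numbers of regions. Chromosome 11 had 42 (17.3% of the regions), beside 8.63% of the ES48 H3K27ac peaks and 14.2% of the H3K27me3 peaks. Of these 42, loci described above held 5, 3, 3 and 3. Chromosome 2 had 15.8% of the H3K27me3 peaks and 24 regions (9.88%). Chromosome 1 had 23 regions (9.47%) with 3.94% of the H3K27me3 peaks, and 6 of these 23 came from the single locus described above. The fewest were on chromosome 16, with 2 regions, and chromosome 19, with 4. As a share of the ES48 peaks that ES49 lacked, the regions ran from 0.820% on chromosome 16 to 7.76% on chromosome 11. Gene density and copy number differ between chromosomes and their part in these shares was not tested.

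**Figure D5:**
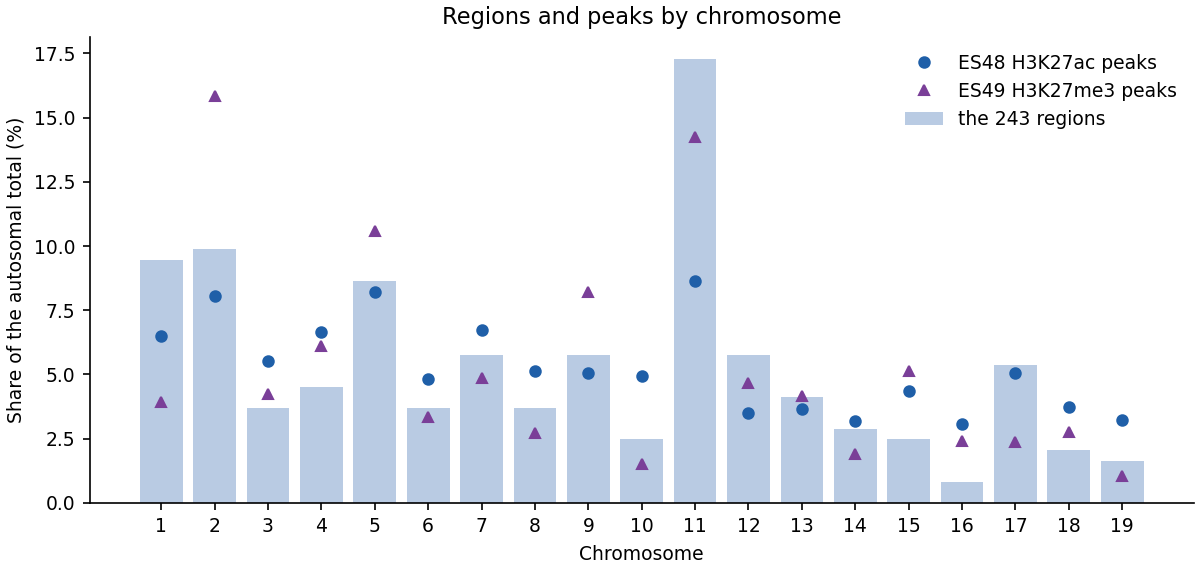
Share of the autosomal total in percent held by each chromosome, with bars for the 243 regions, circles for all ES48 H3K27ac peaks and triangles for ES49 H3K27me3 peaks. Chromosome 11 has the tallest bar, at 17.3%, above both its symbols, and on chromosome 2 the bar (9.88%) is below the H3K27me3 symbol (15.8%).

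EWS-FLI1, the fusion of an RNA-binding protein with an ETS transcription factor that drives the tumour, was found at few regions and at few ES48 H3K27ac peaks of the whole list. An ES48 EWS-FLI1 peak overlapped 3 of 243 regions (1.23%, 0.255 to 3.57), against 0.237% of all autosomal ES48 H3K27ac peaks, and an ES49 EWS-FLI1 peak overlapped the same 3, against 0.332%. For the ES48-only peaks without H3K27me3 the shares were 0.134% and 0.122%. The overlap share of the regions was thus above that of the list but rests on 3 regions. Within 10 kb the counts were 5 for ES48 (2.06%, against 1.03%) and 3 for ES49 (1.23%, against 0.881%). At 100 kb they were 14 for ES48 (5.76%, against 6.11%) and 5 for ES49 (2.06%, against 2.75%). Of these 5, 2 adjoin each other in a run of EWS-FLI1 peaks on chromosome 1, and without regions in such runs the ES49 share was 1.24%. For ES48 at 100 kb, the largest of these counts, the share of the regions lay near that of the list. The median distance to an ES48 EWS-FLI1 peak was 2.99 Mb for the regions and 2.67 Mb for all autosomal ES48 H3K27ac peaks.

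The 3 regions that met EWS-FLI1 were short and weak in both histone marks. At chromosome 13 4560423 to 4560801 the EWS-FLI1 score was 276.8 in ES48 and 619.8 in ES49, the ES48 H3K27ac score 85.2 and the ES49 H3K27me3 score 64.6. At chromosome 10 105775416 to 105775618 the same 4 scores were 139.4, 371.5, 83.5 and 73.7. At chromosome 18 68851678 to 68851889 they were 266.8, 189.3, 54.7 and 59.8. The 4 lists thus had a call over the same short stretch, and these 3 were among the 7 regions whose 2 histone scores were both below 100.

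A few strong regions had ES48 EWS-FLI1 in the neighbourhood without an overlap, at a share near that of the whole list. With both histone marks in the upper 50% of their list, 5.80% of 69 regions (1.60 to 14.2) had it within 100 kb. For all autosomal ES48 H3K27ac peaks the share was 6.11%. The regions named here are examples picked by their distance. The closest region at the ceiling score was chromosome 5 23856504 to 23859444, 26.1 kb from an ES48 EWS-FLI1 peak and 6.96 kb from ES49 H3K27ac. At chromosome 2 129417677 to 129420072, 92.9% covered by H3K27me3, the distance to ES48 EWS-FLI1 was 41.3 kb. Chromosome 11 103506492 to 103511934, with an ES48 H3K27ac score of 2377 and an H3K27me3 peak at 3150, lay 21.7 kb from one. For the 19 regions with a score of at least 3000 the nearest ES48 EWS-FLI1 peak was a median of 1845 kb away (26.1 to 49772). For all autosomal ES48 H3K27ac peaks the median was 2.67 Mb. To the nearest ES49 EWS-FLI1 peak the medians were 5076 kb and 4.80 Mb. These differences were not tested.

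At the edge of the rule, inclusion turned on few bases. The shortest H3K27me3 overlaps were 13 bp, at chromosome 11 115187884 to 115188902, and 26 bp, at chromosome 6 100656696 to 100659871 and chromosome 9 34814760 to 34815398. Just outside were chromosome 11 118289192 to 118289852, which touched an H3K27me3 peak with no shared base, chromosome 4 46317428 to 46318449, at 6 bp, and chromosome 19 47538398 to 47538933, at 18 bp. On the other side of the rule, an ES49 H3K27ac peak came within 136 bp of the region at chromosome 11 89160095 to 89160662. The peak at chromosome 11 117750624 to 117751709 was left out because it shared 125 bp with ES49 H3K27ac. H3K27me3 covered below 10% of 8 regions. The number of regions was 151 when both marks had to score at least 100 and 69 when both had to be in the upper 50% of their list.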

How the data were processed

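ChIP-seq peaks of 5 samples out of 6 were analysed. Bowtie 1.1.1, SAMtools 1.2 and the build mm9 are named, per the submitters' processing notes. Peak names begin with MACS, whose version, settings and control input are not stated in the sources. Each list deposited by the authors holds 1 library's peaks with a score, the caller's own, whose scale is not stated. Read depth is unknown.

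Overlaps of at least 1 bp and distances between peak edges were computed in Python 3.11.15 with numpy 2.4.6, pandas 2.3.3 and scipy 1.17.1, and figures drawn with matplotlib 3.10.9. The sorting into classes was tested on 4000 simulated peaks, all of which fell in their planted class. Starts are given 1-based. Shares carry exact Clopper-Pearson intervals, medians order-statistic intervals. The members, lists and rules were chosen with earlier results of these data known. Regions named were the 10 highest by ES48 H3K27ac score (ties by width), the 10 longest H3K27me3 overlaps, the 10 loci with the most members (those with 3 or more are described), those meeting EWS-FLI1, and the 3 nearest to each edge of the rule; others were chosen after their values were seen. The gene tables at hand are in GRCm38 coordinates, not mm9, so planned results on genes, gene lists, base composition and motifs were not run.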

Additional observations from a re-analysis of the deposited data

How the results depend on the processing

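Of 76 values recomputed for 12 results, 57 stayed within the interval of the value reported, or within 1.5 times for a count, and 19 did not. All 19 came from the 2 stricter cuts on score. With both histone marks at a score of at least 100, there were 151 regions (0.752% of the ES48 H3K27ac peaks that pass the same cut, not of the whole list) in 133 loci, 12 of them with 2 or more, the median width was 1497 bp and the median ES48 H3K27ac score 530.2. With the upper 50% of both lists there were 69 regions (0.545% of the upper 50% of ES48 H3K27ac peaks) in 64 loci, 4 of them with 2 or more, and the medians were 2251 bp, 1319 and 69.4% covered by H3K27me3. Under either cut, 0% overlapped EWS-FLI1 of ES48 or ES49 and 0% had ES49 EWS-FLI1 within 100 kb. The cut itself fixes both values. The 3 overlapping regions have both histone scores below 100. The 2 others with ES49 EWS-FLI1 within 100 kb, on chromosome 1, each have a histone score below 100 (H3K27ac 92.4 and H3K27me3 50.5). A cut on the score removes low scores and, with them, narrow peaks, by its own construction. Asking for 50% of the shorter peak, counting ES49 H3K27ac within 1 or 5 kb as overlapping, leaving out the 2 regions in runs of at least 10 EWS-FLI1 peaks less than 500 kb apart, and joining regions at a shorter distance or at 100 kb moved none of the results computed under them past that limit. Without those 2 regions, which adjoin each other on chromosome 1, the share with ES49 EWS-FLI1 within 100 kb was 1.24% in place of 2.06%. Alternatives for genes, base composition and motifs were not run. No paired analysis was possible because each group has 1 sample and no result comes from a test. Depth is unknown, so weak acetylation in ES49 below the caller's threshold cannot be told from none.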

Other observations

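The same overlap was counted for peaks of the opposite kind, ES49 H3K27ac peaks with no ES48 H3K27ac peak, where acetylation and H3K27me3 come from the same line. Of 9196 such autosomal peaks, 70 (0.761%, 0.594 to 0.961) overlapped ES49 H3K27me3, beside 2.87% of the ES48 peaks that ES49 lacked. With an ES49 score from 50 to 100 the share was 0.633% (42 of 6630), and with 1000 to 3000 it was 3.39% (2 of 59, 0.413 to 11.7). At 3000 and above it was 0 of 7 (upper limit 41.0%). The ES49-only list has few strong peaks, so its upper bins are imprecise, and scores of the 2 libraries are not on a common scale.

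Few ES48-only peaks fell just short of the rule. Of the 8223 that shared no base with an H3K27me3 peak, 6 had one within 100 bp, 57 within 1000 bp and 202 within 5000 bp. Seen from the H3K27me3 list, 337 of 19412 autosomal peaks (1.74%) overlapped ES48 H3K27ac and no ES49 H3K27ac, 78 (0.402%) the reverse, 143 (0.737%) H3K27ac of both lines and 18854 (97.1%) neither. The 149 ES48 H3K27ac peaks that overlapped both ES49 marks met EWS-FLI1 of ES48 in 17 cases (11.4%, 6.79 to 17.6) and of ES49 in 16 (10.7%, 6.26 to 16.9), beside 3 each among the 243 regions without ES49 H3K27ac. Over all autosomal ES48 H3K27ac peaks the shares were 0.237% and 0.332%. Runs of at least 10 EWS-FLI1 peaks held 22 ES48 H3K27ac peaks, 2 of them regions. How many of the 149 lay in such runs was not counted, so their part in these shares was not tested.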
